A study of Macaca fascicularis and Macaca mulatta and Papio anubis with 20 samples.

Results

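TRPV1, TRPA1 and TRPM8, the ion channels through which sensory neurons detect heat, irritant chemicals and cold, were measured in dorsal root ganglia of non-human primates. These ganglia hold the cell bodies of the sensory neurons and lie along the spinal cord. The 3 genes were picked by symbol among the 22000 features counted in Macaca fascicularis, where their identifiers are ENSMFAG00000040334 for TRPV1, ENSMFAG00000045263 for TRPA1 and ENSMFAG00000043208 for TRPM8. The assay was Visium, which captures RNA from a section on an array of barcoded spots and counts transcripts by unique molecular identifiers (UMIs). A spot may cover several cells or part of one, so every share below is a share of spots, not of neurons.

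Of 20 sections of fresh frozen ganglia, 16 were labelled M. fascicularis, 2 M. mulatta and 2 P. anubis. In M. fascicularis a female and a male of batch 1 and a female and a male of batch 2 each had a title code of its own and 4 sections. Each code was treated as 1 specimen, which the labels do not state. The sections of the other species were of batch 2, had no sex label and carried 1 code per species. No strain, age or treatment was given for any group. Sections labelled M. mulatta were counted on P. anubis identifiers (prefix ENSPANG), and sections labelled P. anubis on M. mulatta identifiers (prefix ENSMMUG). The species of these 4 sections may therefore be crossed, and the text names them by label.

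TRPV1 opens to noxious heat, protons and capsaicin, the pungent compound of chili. TRPA1 opens to reactive irritants such as mustard oil and is known from peptidergic and itch-sensing nociceptors, often in neurons that also carry TRPV1. TRPM8 opens to cool temperatures and menthol and is known from a small class of cold-sensing afferents that, in rodents, largely lacks TRPV1 or carries it at low levels. All 3 are nonselective cation channels, and calcium entering through TRPV1 or TRPA1 releases the neuropeptides CGRP, made from CALCA, and substance P, made from TAC1.

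The M. fascicularis sections held between 1136433 and 7073134 UMIs under tissue, and the median UMIs per tissue spot ranged from 398 to 5145 over the 15 sections with a spot matrix. Totals were 190376 and 264661 UMIs under the M. mulatta label and 595020 and 12595205 under the P. anubis label. The male of batch 2, section 3, entered through its deposited gene table alone. Sections of a group differed by more than sampling noise, with a lowest chi-square per degree of freedom of 3.93 over 26 pairs, so each was kept as a sample of its specimen. The summed level of 6 pan-neuronal genes was 11439 ± 1127 UMIs per 1000000 UMIs under tissue (CPM) in the female of batch 1, 11580 ± 842 CPM in the male of batch 1, 13672 ± 766 CPM in the female of batch 2 and 10962 ± 1072 CPM in the male of batch 2 (SD over 4 sections each).

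TRPV1 was read in every M. fascicularis section. Its UMIs summed to 5219 over the 16 sections, 82.5 CPM, and 3034 of 23974 tissue spots held at least 1, which is 12.7%. Over sections the lowest level was 51.0 CPM, the median 77.0 CPM and the highest 116 CPM.

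In the female of batch 1 the TRPV1 level was 75.2, 56.6, 87.2 and 88.2 CPM in sections 1 to 4 (76.8 ± 14.7, SD, n = 4). In the male of batch 1 it was 71.2, 54.7, 98.7 and 89.4 CPM (78.5 ± 19.5). These groups covered nearly the same range. The female of batch 2 stood at 78.8, 109, 88.1 and 116 CPM (97.9 ± 17.3). The male of batch 2 stood at 55.0, 51.0, 70.6 and 67.8 CPM (61.1 ± 9.57), below every section of the female of its own batch. From high to low the order was the female of batch 2, the male of batch 1, the female of batch 1 and the male of batch 2, and the sections of each neighbouring pair in this order overlapped.

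TRPA1 was sparse, with 302 UMIs in 268 M. fascicularis tissue spots, 1.12% of them, and 4.77 CPM. In the female of batch 1 the level was 1.24, 2.57, 0.593 and 1.28 CPM (1.42 ± 0.830, n = 4), and in the male of batch 1 it was 4.97, 0.620, 5.65 and 1.98 CPM (3.30 ± 2.40). The female of batch 2 held 14.2, 6.77, 9.90 and 11.3 CPM (10.5 ± 3.08), and the male of batch 2 held 2.49, 3.15, 4.94 and 1.76 CPM (3.08 ± 1.36). All 4 sections of the female of batch 2 lay above all 12 sections of the other specimens, which overlapped one another. Sections of 1 specimen are not independent, and how many other features separate specimens in this way was not counted. The same limit holds for the TRPV1 gap between the specimens of batch 2.

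TRPM8 gave 406 UMIs in 338 M. fascicularis tissue spots, 1.41% of them, and 6.42 CPM. The female of batch 1 held 4.35, 3.98, 10.4 and 7.16 CPM (6.47 ± 2.97, n = 4) and the male of batch 1 held 4.42, 3.10, 11.6 and 10.7 CPM (7.46 ± 4.32). In both specimens of batch 1, sections 3 and 4 were higher than sections 1 and 2. The female of batch 2 held 3.49, 3.03, 5.55 and 9.38 CPM (5.36 ± 2.89) and the male of batch 2 held 4.04, 3.68, 2.96 and 4.3997 CPM (3.77 ± 0.614). The TRPM8 levels of all 4 specimens overlapped.

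**Figure D1:**
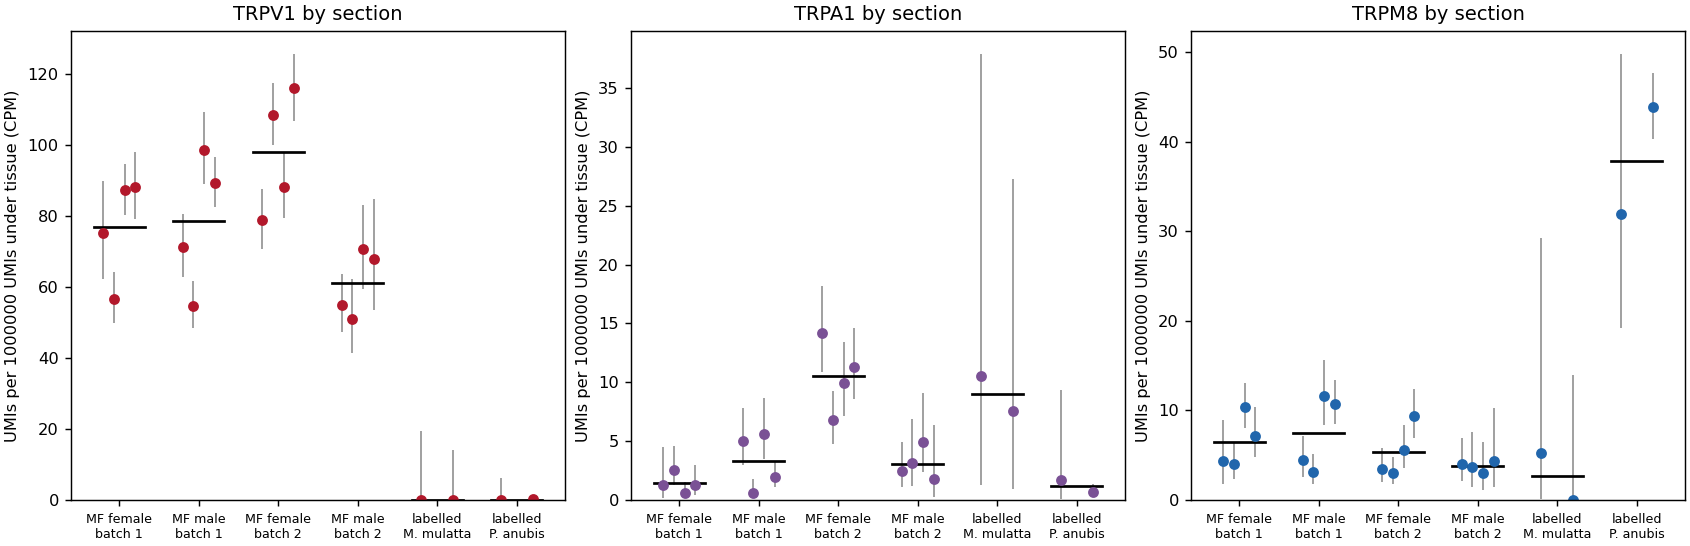
Level of each channel in CPM, 1 point per section with its exact binomial (Clopper-Pearson) 95% interval in grey and the group mean (black line); MF is M. fascicularis. TRPA1 is highest in the female of batch 2 among M. fascicularis, at 6.77 to 14.2 CPM; TRPV1 is at or near 0 in the sections labelled with the other species, and TRPM8 is at 31.9 and 43.9 CPM in those labelled P. anubis.

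The levels of none of the 3 channels passed the test between the sexes or between the batches over specimens. The 4 specimens each differed in sex or batch, so these p-values cannot measure the spread between animals of the same sex and batch. Part of the spread was taken by edgeR from all tested features. For the sex difference, 0% of 12650 tested features passed an adjusted p of 0.05 (edgeR quasi-likelihood test over the 4 specimens, Benjamini-Hochberg adjustment), with 169 features at an unadjusted p under 0.05 and 0 calls by DESeq2. The female minus male log2 difference was 0.44 for TRPV1 (SE 0.27), 0.43 for TRPA1 (SE 0.73) and 0.27 for TRPM8 (SE 0.42), each with an adjusted p of 0.998. For the batch difference 2.88% of features passed, 1.26% higher and 1.61% lower in batch 2. TRPA1 was 1.66 higher in batch 2 on the log2 scale (SE 0.74, edgeR adjusted p = 0.273), TRPM8 was at -0.62 (SE 0.42, adjusted p = 0.474) and TRPV1 at 0.09 (SE 0.26, adjusted p = 0.897). With the filter on low counts left out the TRPA1 batch difference passed, at 1.65 (edgeR adjusted p = 0.0251).

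In the same batch contrast 5 of 7 tested fibroblast markers fell, and 1 of 21 tested nociceptor genes rose, SCN10A, the sodium channel Nav1.8. Summed fibroblast markers stood between 3095 and 7103 CPM in sections of batch 1 and between 1224 and 3376 CPM in batch 2, and their part in the channels' levels was not tested. In bulk sums like these, fewer neurons of a type and less RNA per neuron cannot be told apart. The female of batch 2 carried the TRPA1 difference, and no further specimen of that sex and batch was measured. With sections taken as samples, the sex difference of TRPA1 was larger in batch 2 than in batch 1 by 3.03 on the log2 scale (SE 0.76, edgeR adjusted p = 0.0107), and that of TRPV1 by 0.87 (SE 0.26, adjusted p = 0.0291). Sections share a specimen, so these p-values are too small, and each cell of that design held 1 specimen.

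Since a share of spots with a UMI depends on depth, shares were taken before and after thinning. In M. fascicularis the mean share for TRPV1 was 15.2% in the female of batch 1, 17.4% in the male of batch 1, 12.97% in the female of batch 2 and 7.20% in the male of batch 2 (n = 4, 4, 4 and 3 sections). After each spot was thinned to 1000 UMIs the shares were 5.92% ± 1.12, 6.62% ± 1.62, 8.56% ± 1.60 and 5.51% ± 0.696 in the same order. Thinning left out 1880, 1560, 5039 and 2328 shallower spots. The thinned TRPA1 share was 0.129%, 0.258%, 0.913% and 0.224%, again highest in the female of batch 2, and that of TRPM8 0.660%, 0.689%, 0.525% and 0.419%. Exact permutation tests over the 4 specimens, two-sided, gave p-values from 0.333 to 1 for these shares, and 0.333 is the smallest this design allows.

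Off the tissue, where spots measure free RNA, TRPV1 was read in 0.0355% to 1.30% of spots per M. fascicularis section, against 4.95% to 23.0% of tissue spots. The off-tissue level was 58.9 CPM for TRPV1 from 294 UMIs, 2.40 CPM for TRPA1 from 12 UMIs and 4.81 CPM for TRPM8 from 24 UMIs. These sums were below those under tissue, but the off-tissue CPM was the higher in 1 of 15 sections for TRPV1, 3 for TRPA1 and 4 for TRPM8, and in the female of batch 1 as a whole for TRPA1, at 3.31 against 1.33 CPM from 7 off-tissue UMIs. UMIs per positive tissue spot, averaged within each M. fascicularis section and then over sections, were 1.68 for TRPV1, 1.07 for TRPA1 and 1.17 for TRPM8. The richest M. fascicularis spot held 35 UMIs of TRPV1, 4 of TRPA1 and 4 of TRPM8.

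The sections labelled with the other species differed most in TRPV1. No TRPV1 UMI was read in the 2 sections labelled M. mulatta, where a count of 0 allows up to 6.59 CPM over both. The sections labelled P. anubis held 0 and 2 TRPV1 UMIs, the latter 0.159 CPM in a library of 12595205 UMIs. The gene models differed between the species labels, as the identifiers show, and their part in this difference was not tested.

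TRPM8 showed the reverse order under the P. anubis label alone. The sections labelled P. anubis held 19 and 553 TRPM8 UMIs, 31.9 and 43.9 CPM, in 13 and 297 spots (0.428% and 11.2%), and both lay above every M. fascicularis section. Per 1000 pan-neuronal UMIs TRPM8 was at 3.00 and 2.22 in these sections, against a mean of 0.491 in M. fascicularis, but the sum held 8 genes under the P. anubis label and 6 in M. fascicularis, so these ratios are not like for like. After thinning to 1000 UMIs per spot the shares were 1.40% and 3.40%, from 69 and 1734 spots of that depth. In the 69 spots the share before thinning was 1.45%, so the 1.40% rests on very few positive spots. The highest thinned share in M. fascicularis was 1.26%, in the male of batch 1, section 3. TRPA1 gave 1 and 9 UMIs in the sections labelled P. anubis (1.68 and 0.715 CPM). It gave 2 UMIs in each section labelled M. mulatta (10.5 and 7.56 CPM), where TRPM8 gave 1 and 0. Each of these labels holds 1 specimen code and was mapped to other gene models, so the values stand side by side with no test.

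Other channels of the TRP family gave a range of levels in M. fascicularis, where 19 of 23 listed genes were found by symbol. TRPV2 stood at 97.0 ± 20.5 CPM (SD, n = 16), the lysosomal channel MCOLN1 at 58.6 ± 15.4 CPM, TRPC1 at 31.8 ± 8.80 CPM and TRPM2 at 29.1 ± 9.35 CPM. TRPM3, a heat-activated channel of sensory neurons, was at 0.506 ± 0.390 CPM, and TRPV4 at 0.581 ± 1.07 CPM. TRPV3, TRPC5, TRPM5 and PKD2L1 gave no UMI. Capture near the poly-A tail can differ between genes, so these levels are not ranked against those of the 3 channels. In the sections labelled P. anubis TRPV2 was at 63.2 CPM on average.

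The authors deposited Moran's I for each gene and section, a score that is high where spots near each other have like levels, with a p-value adjusted within the section. Over the M. fascicularis sections 16.2% of all gene and section entries had an adjusted p under 0.05 in the authors' deposited tables, from 5.42% to 40.6% by section. TRPV1 passed in 11 of 16 sections, TRPA1 in 5 and TRPM8 in 3 of the authors' deposited tables. The share for TRPV1 was well above that background, and those for TRPA1 and TRPM8 lay nearer to it. That background spans genes of all levels, and the channels differed in UMIs, at 5219, 302 and 406. The part of level in these shares was not tested.

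The median I of TRPV1 in the authors' deposited tables was 0.0333, from -0.00755 to 0.118, and its median percentile among genes of a section was 88.6. The highest values were 0.118 in the female of batch 1, section 2, 0.0922 in the female of batch 2, section 3, and 0.0914 in the female of batch 1, section 3. TRPV1 passed in 3, 4, 3 and 1 sections of the female of batch 1, male of batch 1, female of batch 2 and male of batch 2. The sections of the male of batch 2 were the shallowest M. fascicularis group, at 8284911 UMIs in all, and 10.6% of all entries passed there.

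TRPA1 had a median I of 0.00732 in the authors' deposited tables, and passed in 2 sections of the female of batch 1 and 3 of the female of batch 2, with its highest value, 0.0522, in section 1 of the latter. The calls in the female of batch 1 rest on 11 UMIs in 9 spots of section 2 and 4 UMIs in 4 spots of section 3. Recomputed from log2 counts per 10000 plus 1, I was 0.0657 and -0.00158 there. Medians recomputed over 15 M. fascicularis sections were 0.0664 for TRPV1, -0.00158 for TRPA1 and 0.00627 for TRPM8. TRPM8 had a median of 0.00746, and its 3 calls were all in the male of batch 1, at 0.0294, 0.0363 and 0.0332 in sections 2, 3 and 4. The deeper section labelled P. anubis had a TRPM8 value of 0.0642, which passed, and the shallower 0.00376, which did not. Of all entries 14.1% passed in the sections labelled P. anubis and 3.04% in those labelled M. mulatta, where none of the channels did in the authors' deposited tables.

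**Figure D2:**
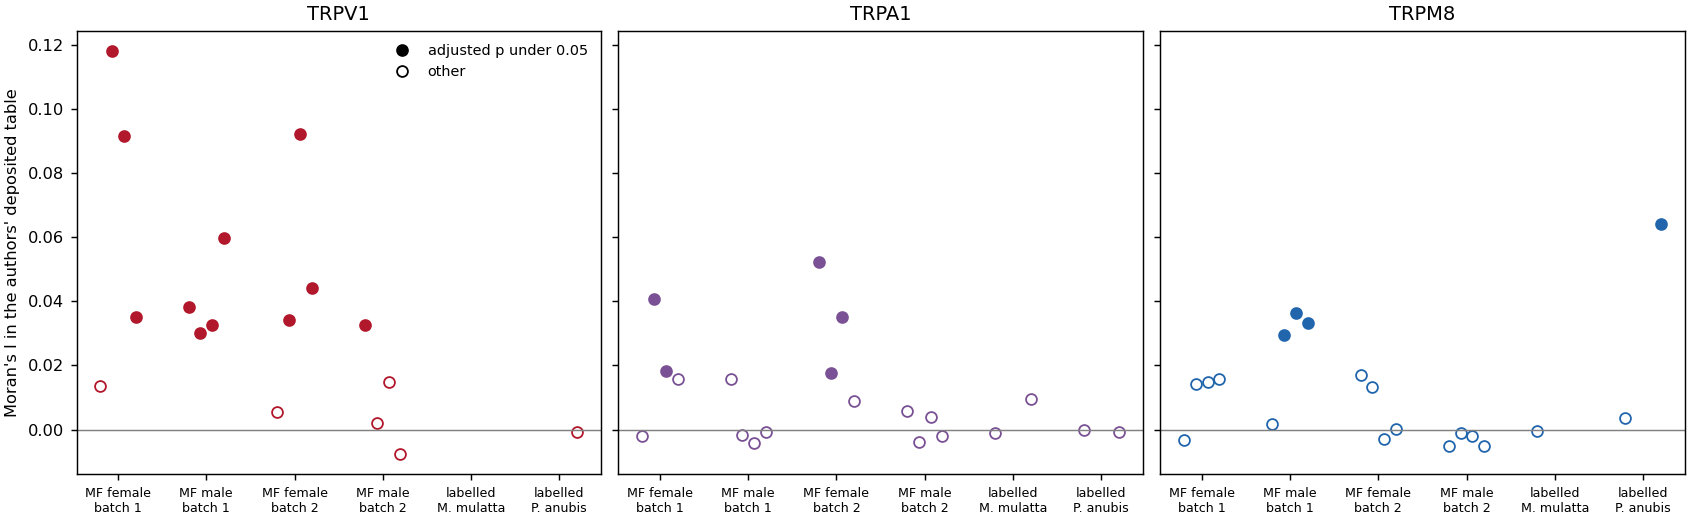
Moran's I of each channel by section in the authors' deposited tables, filled where the adjusted p was under 0.05; MF is M. fascicularis. TRPV1 is filled in 11 of 16 M. fascicularis sections, TRPA1 in 5 and TRPM8 in 3.

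Neighbouring spots were also compared by counts. Among the 6 nearest spots of a TRPV1-positive spot 28.1% ± 9.38 also held TRPV1, against 11.6% ± 4.41 around TRPV1-free spots (SD over 15 M. fascicularis sections), and the first share was higher in 15 of 15 sections. For TRPA1 the shares were 3.76% ± 4.84 and 1.14% ± 0.976, higher near positive spots in 7 of 15 sections and in all 4 of the female of batch 2. For TRPM8 they were 3.61% ± 3.66 and 1.61% ± 1.14, higher in 10 of 15, including all 4 sections of the male of batch 1. In the sections labelled P. anubis the TRPM8 shares averaged 16.1% and 4.91%. The part of depth in these shares was not tested.

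Spots of the 3 channels were mapped in the female of batch 2, section 3. This section was chosen as the one with the highest Moran's I of TRPV1 in the specimen with most TRPA1 UMIs. Of 2171 tissue spots 193 held TRPV1, 36 held TRPA1 and 20 held TRPM8. Of the 36 TRPA1 spots 31 also held TRPV1. In this section TRPV1 and TRPA1 passed for Moran's I in the authors' deposited table, and TRPM8 was at -0.00286, with no TRPM8 UMI at the 118 neighbour positions of its positive spots.

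**Figure D3:**
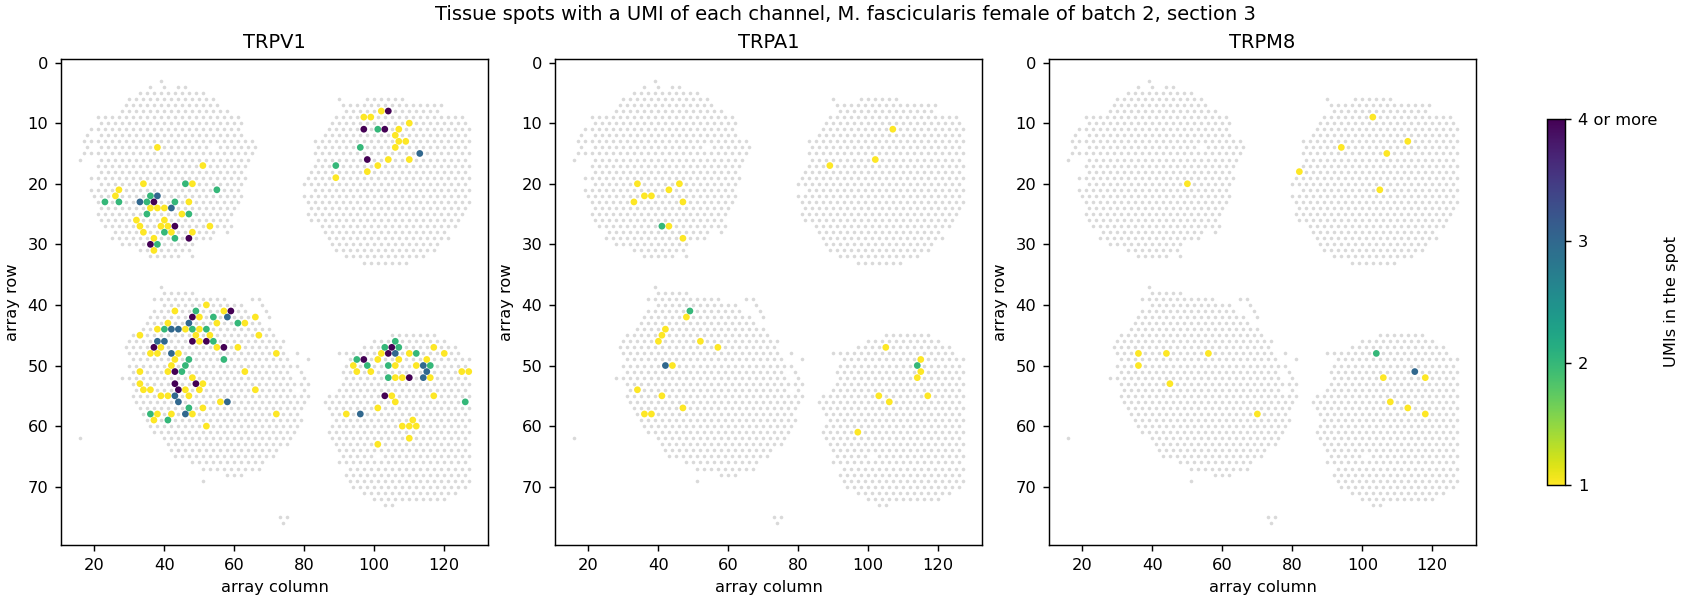
Spots under tissue by array column and row in the M. fascicularis female of batch 2, section 3; grey spots have no UMI of the channel and the colour gives the UMIs, with 4 or more in the darkest. TRPV1 is in 193 spots, TRPA1 in 36 and TRPM8 in 20 of 2171.

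TRPV1 and TRPA1 shared more spots than their shares at like depth give in the sum over M. fascicularis and, by its interval, in 1 of 4 specimens. Among 18594 M. fascicularis spots with at least 200 UMIs, 166 held both, where 107.5 were expected from their shares within depth deciles of each section, a ratio of 1.54 (95% exact Poisson interval 1.32 to 1.80, counting error only). These 166 spots were 64.3% of the TRPA1-positive and 5.74% of the TRPV1-positive spots. The female of batch 2 held 121 of them, at a ratio of 1.64 (1.36 to 1.96). The ratio was 1.37 (0.683 to 2.45) in the female of batch 1, 1.42 (0.968 to 2.00) in the male of batch 1 and 0.682 (0.0826 to 2.46) in the male of batch 2, where 2 spots held both, and these 3 intervals include 1.

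TRPV1 and TRPM8 were together in 145 spots against 119.8 expected, a ratio of 1.21 (1.02 to 1.42), which were 43.8% of TRPM8-positive spots. The ratio lay between 1.15 and 1.28 in each of the 4 specimens, and each specimen's own interval included 1. These intervals were 0.951 to 1.70 in the female of batch 1 and 0.884 to 1.53 in the male of batch 1. They were 0.833 to 1.63 in the female of batch 2 and 0.314 to 2.95 in the male of batch 2, where 4 spots held both. TRPA1 and TRPM8 were together in 15 spots against 10.9 expected, 1.38 (0.771 to 2.27), an interval that includes 1. Without depth deciles the 3 ratios were 3.79, 2.42 and 3.46. The expected counts took up depth alone, and the part of neuronal content in the ratios was not tested.

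**Figure D4:**
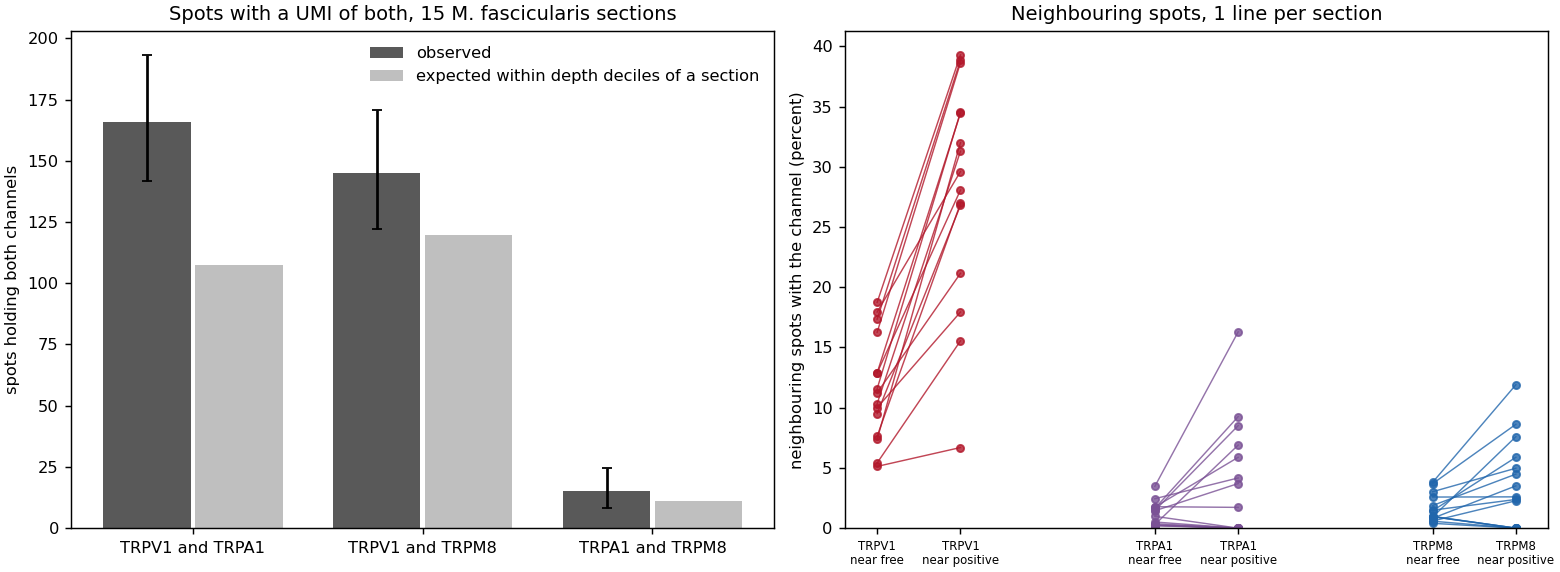
Left, spots holding both channels of a pair, observed (dark, with exact Poisson interval) and expected within depth deciles of a section (light), over 15 M. fascicularis sections. Right, percent of neighbouring spots that hold the channel around free and around positive spots, 1 line per section; the TRPV1 lines rise in 15 of 15 sections.

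Genes that share spots with each channel were tested by summing UMIs per specimen over channel-positive spots and over channel-free spots of like depth from the same section, with the specimen as a block. The likeness of a gene's pattern to that of a channel is its log2 fold change between these classes. Levels within the classes are given as CPM means ± SD over specimens.

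For TRPV1, 2892 positive spots were set against 8676 free spots in 4 specimens, and 12% of 11845 tested features passed (edgeR adjusted p under 0.05), 4.91% higher and 7.08% lower. Deep TRPV1-free spots ran out in this match, with median UMIs of 7611.5 against 2880.5 in the female of batch 1, 6308 against 2880 in the male of batch 1 and 6564.5 against 1811 in the female of batch 2. A match of 1 free spot within 0.5 log2 units of depth, chosen after seeing this, gave median UMIs of 7611.5 against 7536.5, 6303.5 against 6004.5, 6487 against 5919 and 2832 against 2829. Its values are given as matched 1 to 1, and it called 1140 of 11630 tested features, 504 higher and 636 lower. Unless another match is named, the values for TRPV1-positive spots, DESeq2 and left-out specimens included, come from the first match, of unequal depth.

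TRPA1 was higher in TRPV1-positive spots by 1.40 on the log2 scale (SE 0.24, edgeR adjusted p = 2.33e-04). Its level was 1.84 against 1.12 CPM in the female of batch 1, 4.82 against 2.11 CPM in the male of batch 1, 18.5 against 5.20 CPM in the female of batch 2 and 1.85 against 3.22 CPM in the male of batch 2. The difference had this direction in 3 of 4 specimens, and matched 1 to 1 it was 1.43. Without the female of batch 2 it was 0.84 and the call was lost (edgeR adjusted p = 0.162), and DESeq2 gave 1.09 (adjusted p = 0.0901).

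TRPM8 was 0.55 higher (SE 0.17, edgeR adjusted p = 0.0353), at 9.71 against 6.32, 10.7 against 6.69, 6.16 against 4.71 and 3.69 against 3.94 CPM in the same order of specimens. This call was lost when matched 1 to 1 (0.48, edgeR adjusted p = 0.0923), when also matched on neuronal content (0.50, adjusted p = 0.0576), without the female of batch 1 (0.50, adjusted p = 0.262), without the male of batch 1 (0.46, adjusted p = 0.261) and by DESeq2 (adjusted p = 0.396).

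Nociceptor genes rose with TRPV1. Of 20 tested genes of that list 16 were higher and none lower, with a median log2 difference of 0.59 against -0.01 over all tested features. Matched 1 to 1, 13 were higher with a median of 0.53. SST, the peptide somatostatin of itch-related nociceptors, stood at 188 ± 39.7 against 93.7 ± 47.2 CPM (log2 1.14, SE 0.09, edgeR adjusted p = 6.19e-09), TAC1 was higher by 1.09, CALCA by 0.95 at 698 ± 65.1 against 381 ± 124 CPM, and GFRA3, the artemin receptor subunit, by 0.84. In the first match, of unequal depth, each of these was higher in 4 of 4 specimens and kept its call with any specimen left out.

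Outside that list EDN3, the peptide endothelin 3, was higher by 1.23 (39.0 ± 15.5 against 19.6 ± 14.95 CPM), the peptide gene CCK by 1.21, the secretory granule protein gene SCG2 by 0.94, SCRG1 by 0.89 and RGS9, a regulator of G protein signalling, by 0.85, and all 5 kept their calls when matched 1 to 1, by DESeq2 and with any specimen left out. The sodium channel genes SCN10A and SCN11A rose by 1.30 and 0.58. SCN10A lost its call without the female of batch 2 (1.01, edgeR adjusted p = 0.102), and SCN11A by DESeq2 (adjusted p = 0.238). MRGPRX1, an itch receptor, rose by 0.64 but stood at 0.14 without the female of batch 2.

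Of 12 tested genes of large-diameter neurons, the touch and position afferents, 5 fell, 1, LDB2, rose and 6 did not pass, and the same counts held when matched 1 to 1. PVALB, the calcium buffer of muscle afferents, was at 328 ± 89.4 against 453 ± 157 CPM (log2 -0.48, SE 0.09, edgeR adjusted p = 5.99e-04; -0.75 matched 1 to 1). NEFH, the heavy neurofilament chain, was lower by -0.40, SPP1 by -0.42 and NTRK3, the neurotrophin 3 receptor, by -1.68.

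Among the other TRP channels TRPV2 rose by 0.28, and among the genes that act on TRP channels PLCB3, a phospholipase downstream of inflammatory receptors, rose by 0.46. TRPV2 lost its call without the female of batch 1 (0.25, edgeR adjusted p = 0.105). Among called genes of at least 20 CPM and 1 direction in every specimen, the lowest were PLA2G2A (log2 -2.01), SFRP4 (-1.55), MGP (-1.46) and PTGDS (-1.40), all known from connective tissue or meninges. Matched 1 to 1 these were -0.17, -0.45, -0.46 and -0.33. The cause of this shift was not tested. Of the tested markers of other cells, 7 of 7 for fibroblasts, 4 of 5 for endothelium, 4 of 5 for smooth muscle and 3 of 6 for myelinating Schwann cells were lower, against 4, 1, 1 and 0 when matched 1 to 1. None of 7 for satellite glia passed in either match. PLA2G2A also moved to -0.58 without the female of batch 2.

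For TRPA1, 243 positive spots were set against 729 free spots in 3 specimens, the male of batch 2 being left out with 15 spots. The classes had like depth, and 3.58% of 8593 tested features passed, 1.51% higher and 2.07% lower. TRPV1 stood at 247 against 71.9 CPM in the female of batch 1, 179 against 63.3 CPM in the male of batch 1 and 211 against 85.2 CPM in the female of batch 2. It was higher by 1.44 on the log2 scale (SE 0.12, edgeR adjusted p = 4.62e-11), in 3 of 3 specimens with no overlap, and kept its call by DESeq2, matched 1 to 1 (1.43), matched on neuronal content (1.43) and with any specimen left out. This rests on the same shared spots as the TRPA1 difference in TRPV1-positive spots and is no second result. TRPM8 was at 11.4 ± 4.95 against 7.52 ± 2.13 CPM (log2 0.41, SE 0.43, edgeR adjusted p = 0.777).

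With TRPA1, 7 of 16 tested nociceptor genes were higher and none lower, with a median of 0.60 against 0.01 over all features. CALCA was at 890 ± 212 against 515 ± 77.2 CPM (log2 0.79, SE 0.08, edgeR adjusted p = 7.57e-09) and TAC1 was higher by 0.81, CALCB by 0.51 and GFRA3 by 0.67. MRGPRX1 rose by 0.89, GFRA2, the neurturin receptor subunit, by 0.89 and SCN11A by 0.53. These last 3 lost their calls without the female of batch 2, at 0.01, 0.40 and 0.23 (edgeR adjusted p = 0.997, 0.277 and 0.231). GFRA3 lost its call by DESeq2 and when matched 1 to 1.

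Beside TRPV1, the genes with the highest fold change among called genes of at least 20 CPM and 1 direction in every specimen were PCSK1, an enzyme that cleaves peptide precursors, by 1.46 (27.2 ± 1.57 against 10.2 ± 2.101 CPM), SCRG1 by 1.30, NMU, the peptide neuromedin U, by 1.08, CHP2 by 1.02, CCK by 0.94, LDB2 by 0.90 and RBP4, the retinol carrier, by 0.88 at 475 ± 43.2 against 266 ± 64.0 CPM. RBP4 kept its call with any specimen left out. Without the female of batch 2, which held 167 of the 243 spots, PCSK1 (1.48), SCRG1 (0.76), NMU (0.71), CHP2 (0.54) and LDB2 (0.49) no longer passed, and without the female of batch 1 CCK did not (0.66). NMU, CHP2 and CCK also failed when matched 1 to 1 (edgeR adjusted p = 0.115, 0.0683 and 0.376).

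Large-diameter genes fell with TRPA1 in 4 of 8 tested, and 1, LDB2, rose. PVALB was at 102 against 326, 207 against 525 and 224 against 602 CPM in the female of batch 1, the male of batch 1 and the female of batch 2 (log2 -1.44, SE 0.10, edgeR adjusted p = 3.64e-13). NEFH was at -1.17 and SPP1 at -0.73, and these 3 kept their calls with any specimen left out. RUNX3, a transcription factor of proprioceptors, was at -1.98. Among called genes of at least 20 CPM and 1 direction in every specimen, the lowest were PTH1R (-1.74), CALB2, the calcium buffer calretinin (-1.73), CLEC2L (-1.66) and SMPX (-1.66), of which PTH1R lost its call without the female of batch 2 (-1.34, edgeR adjusted p = 0.241). Of 7 tested fibroblast markers 2 were lower too, and none of 7 tested other TRP channels passed.

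For TRPM8, 331 positive spots were set against 993 free spots in 4 specimens, and 3.1% of 8743 tested features passed, 1.18% higher and 1.92% lower. PENK, the opioid peptide precursor proenkephalin, stood highest, by 2.50 on the log2 scale (SE 0.22, edgeR adjusted p = 1.86e-25; DESeq2 2.36, adjusted p = 1.20e-04). It was at 66.7 against 5.65, 16.3 against 5.76, 88.6 against 18.3 and 0 against 4.44 CPM in the female of batch 1, the male of batch 1, the female of batch 2 and the male of batch 2. The last of these had 25 TRPM8-positive spots, and PENK was higher in the other 3 specimens.

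KIT, the stem cell factor receptor, was at 86.6 against 27.6, 89.7 against 36.4, 66.1 against 13.5 and 26.6 against 4.44 CPM (log2 1.56, SE 0.15, edgeR adjusted p = 1.52e-22). TMEM273 was higher by 1.82, the ectonucleotidase gene ENTPD3 by 1.06 (152 ± 46.3 against 66.3 ± 11.5 CPM), SCN2B, a sodium channel beta subunit, by 0.92, the phospholipase PLCD4 by 0.88 and SCG2 by 0.81. These 6 genes were higher in 4 of 4 specimens and kept their calls by DESeq2, matched 1 to 1 and with any specimen left out. SCARA3 (1.10) lost its call without the male of batch 1 (1.09, edgeR adjusted p = 0.106), and SH2D2A (0.96) when matched 1 to 1 and without either female.

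TRPV1 was higher in TRPM8-positive spots by 0.61 (SE 0.11, edgeR adjusted p = 3.39e-06; DESeq2 adjusted p = 0.0386). The level was 137 against 80.5, 111 against 81.3, 137 against 79.7 and 79.9 against 66.6 CPM, higher in 4 of 4 specimens. It was 0.63 when also matched on neuronal content, where the call was lost without the female of batch 1 (0.44, edgeR adjusted p = 0.112). This difference rests on the same shared spots as the TRPM8 difference in TRPV1-positive spots and is no second result. TRPA1 was at 8.68 ± 5.11 against 3.02 ± 3.82 CPM (0.95, SE 0.52, edgeR adjusted p = 0.492).

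Of the nociceptor list 5 of 15 tested genes rose with TRPM8 and none fell, and the median was 0.05 against -0.01 over all features. Apart from PENK and KIT these were TAC1 (0.42), CALCB (0.36) and CALCA (0.35 at 614 ± 110 against 519 ± 110 CPM), none of which DESeq2 called, and CALCA missed the threshold without the female of batch 2 (0.23, edgeR adjusted p = 0.0501). SST was at -0.15 (edgeR adjusted p = 0.691). Large-diameter genes fell in 3 of 8 tested, PVALB at -0.99, SPP1 at -0.76 and NEFH at -0.62 on the log2 scale. DESeq2 called NEFH alone of these, and 5 of 7 tested fibroblast markers were lower as well, 1 of them when matched 1 to 1. That match called 131 of 8458 features, 73 of them lower. Of the cold afferent list 2 of 6 genes could be tested and PENK passed, and none of 7 tested other TRP channels passed.

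Matching the free spots on pan-neuronal UMIs as well as depth was run for each channel, but for TRPV1 it left both unequal, with median UMIs of 7611.5 against 2846 and median pan-neuronal UMIs per 10000 of 123 against 98.0 in the female of batch 1. Matched 1 to 1 these were 7611.5 against 7504.5 and 123 against 121. That match called 1142 of 11601 features, 516 higher and 626 lower. With 3 free spots per positive spot, 11.3% of 11819 features passed for TRPV1, 4.76% higher and 6.56% lower. TRPA1 was again 1.40 higher with TRPV1 (SE 0.24, edgeR adjusted p = 3.16e-04), lost without the female of batch 2 (0.83, adjusted p = 0.193), and 17 of 20 tested nociceptor genes were higher, against 14 of 20 when matched 1 to 1. For TRPA1, 5.45% of 8570 features passed, 2.25% higher and 3.2% lower. Of 15 tested nociceptor genes 9 were higher with TRPA1, among them TAC1 by 1.00 and CALCA by 0.98, and the kinase gene PRKCD was higher by 1.03 at 109 ± 25.3 against 59.2 ± 4.66 CPM. All 3 kept their calls with any specimen left out and by DESeq2. For TRPM8, 2.4% of 8723 features passed, 1.03% higher and 1.36% lower. KIT was again at 1.56 and ENTPD3 at 1.13, with IFT57, a gene of ciliary transport, at 1.25 (93.4 ± 40.4 against 45.7 ± 11.7 CPM).

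**Figure D5:**
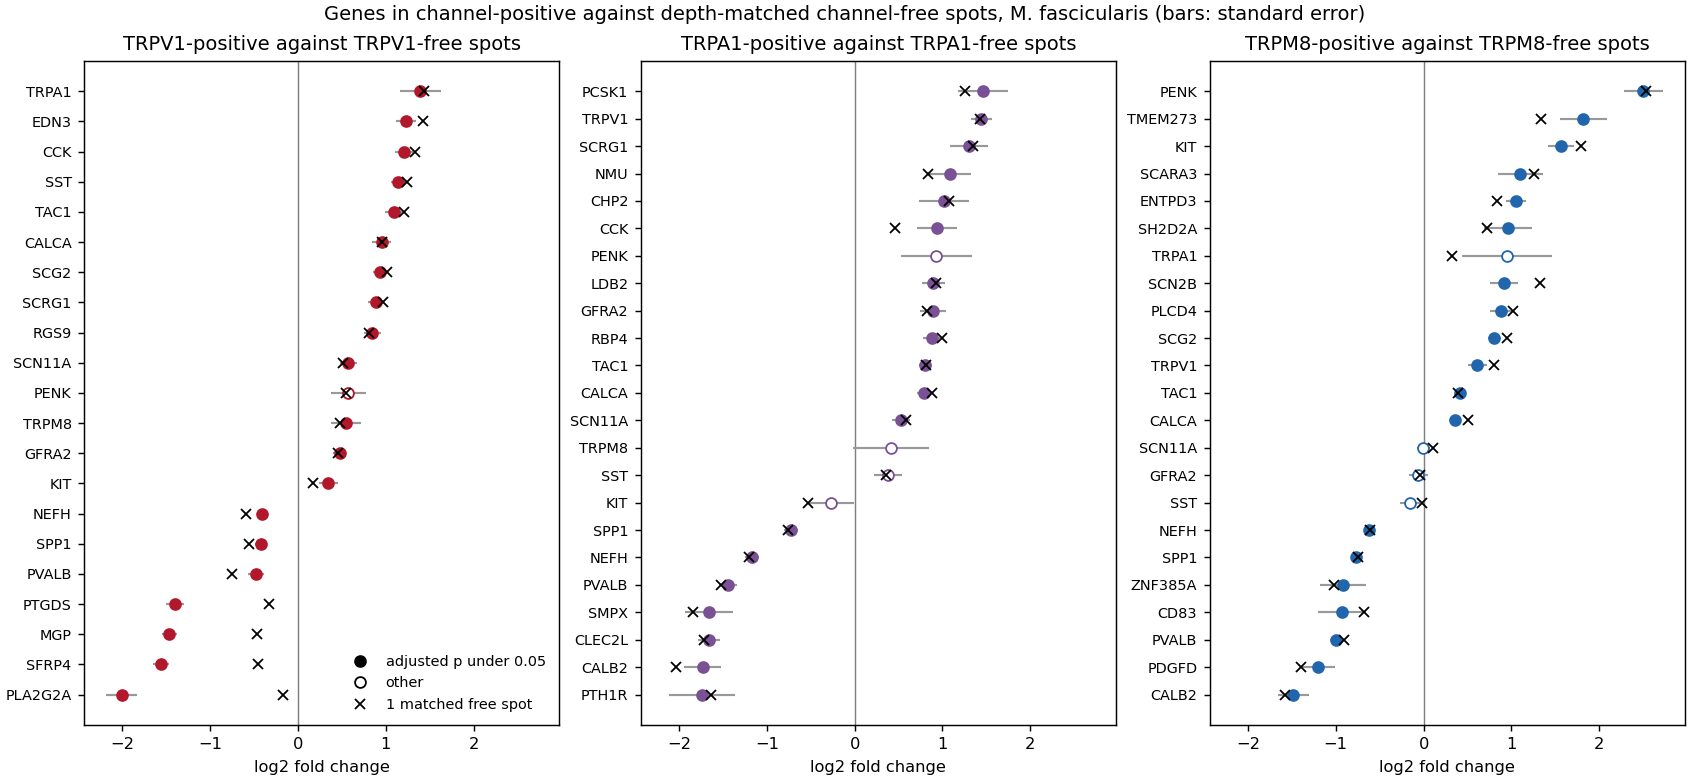
Log2 fold change (points, with standard error) between spots with and without TRPV1, TRPA1 or TRPM8 for the genes chosen by rule, the channels and selected list genes in M. fascicularis; filled points passed an adjusted p of 0.05 by edgeR and crosses give 1 matched free spot per positive spot. PENK stands at 2.50 beside TRPM8 and TRPV1 at 1.44 beside TRPA1, and the crosses of PLA2G2A, SFRP4, MGP and PTGDS lie between -0.46 and -0.17.

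Some of the genes named for TRPM8 are given here for the sections labelled P. anubis, with 308 TRPM8-positive and 308 free spots of like depth. These came from 1 specimen code and so were not tested, and 297 of the positive spots lay in the deeper section. PENK was at 84.4 against 14.6 CPM, a ratio of 5.79 from 285 and 49 UMIs. KIT was at 54.8 against 11.6 CPM (ratio 4.72, 185 and 39 UMIs), ENTPD3 at 98.0 against 51.5 CPM (1.90), SCG2 at a ratio of 1.81 and SCN2B at 1.79. PVALB was at a ratio of 0.701 and NEFH at 0.766. The ratios given here run in the direction of the M. fascicularis values. Other genes named for TRPM8, among them TMEM273, PLCD4, SPP1 and CALCA, are left out here. No ratio over all features is set beside those given.

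Spots with a single channel of a pair were then compared directly, without matching on depth or neuronal content. In the female of batch 2 median UMIs were 6531 with TRPV1 against 4445 with TRPM8 in the first pair below. They were 5576.5 with TRPM8 against 8032 with TRPA1 in the last pair. The part of depth in these comparisons was not tested. TRPV1 without TRPM8 (2747 spots) against TRPM8 without TRPV1 (186 spots) gave 0.934% of 8136 features past the threshold, 0.565% higher with TRPV1 and 0.369% higher with TRPM8. On the TRPV1 side were SST (log2 1.42; 191 ± 36.0 against 80.2 ± 65.9 CPM), TAC1 (0.75), PPEF1 (0.86), RBP4 (0.76) and CALCA (0.53). On the TRPM8 side were PENK (-2.83), TMEM273 (-2.23), KIT (-1.87; 22.8 ± 11.9 against 83.9 ± 50.4 CPM) and SH2D2A (-1.30). PENK, TMEM273, KIT, TAC1 and CALCA passed by DESeq2 as well, and SST did not. SH2D2A lost its call without the female of batch 1, the female of batch 2 or the male of batch 1 (-1.22, -1.23 and -1.53). TRPA1 did not separate these spots (0.40, SE 0.65, edgeR adjusted p = 0.970).

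TRPV1 without TRPA1 (1764 spots) against TRPA1 without TRPV1 (70 spots) could be fitted in the male of batch 1 and the female of batch 2 only, and 0.343% of 10199 features were higher with TRPV1 and 0.235% with TRPA1. NEFH was higher with TRPV1 alone, at 5011 ± 565 against 2786 ± 29.8 CPM (log2 0.88, SE 0.08, edgeR adjusted p = 3.56e-23), as were SST (1.07), CTSZ (1.54) and KCNS3 (1.21). With 2 specimens this p-value rests on spread that edgeR pooled over features, and it does not measure the spread between animals. GFRA2 (-0.90), SCN11A (-0.59) and GPX2 (-1.07) were higher with TRPA1 alone. TRPM8 without TRPA1 (192 spots) against TRPA1 without TRPM8 (212 spots), in the same 2 specimens, gave 0.894% of 7380 features higher with TRPM8 and 1.03% higher with TRPA1. PENK (2.70), TAFA1 (2.61), KIT (2.28) and COLQ (2.21) were higher with TRPM8, and KCNK18, the potassium channel TRESK (-2.19), GPX2 (-1.80), NMU (-1.78), MRGPRX1 (-1.61) and GFRA2 (-1.40) with TRPA1. TRPV1 was at 105 and 132 CPM in the TRPM8 spots and at 177 and 214 CPM in the TRPA1 spots (log2 -0.73, SE 0.15, edgeR adjusted p = 0.00883; DESeq2 adjusted p = 0.462).

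These limits hold for all spot comparisons. Fitted without the specimen as a block they called 0 features (edgeR; 115 to 288 features at an unadjusted p under 0.05), and DESeq2 with the block called between 11 and 485. Each fit held 2 to 4 specimens, and edgeR took part of each gene's spread from all tested features. Very small edgeR p-values therefore do not measure the spread between animals alone. A positive spot was defined by as little as 1 UMI, so channel-free spots can hold the channel's transcript unread, and each class mixes cells.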

How the data were processed

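Gene levels were measured with Visium in 20 sections of primate dorsal root ganglia, 19 of them with a spot matrix. Per the file headers, Space Ranger 2.0.0 (12 sections) or 2.1.0 (7 sections) made the deposited UMI counts per feature and spot, and within M. fascicularis the version goes with the batch. The submitters' processing notes list the build Mmul_10 for all sections. The authors also deposited a table per section with Moran's I, a score, its p-value and an adjusted p-value.

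CPM is UMIs per 1000000 UMIs under tissue, or of the class of spots. Levels were tested with edgeR 4.0.16 (quasi-likelihood, TMM, filterByExpr, R 4.3.3) over specimen sums, with sex and batch as terms. For spot comparisons, counts were summed per specimen over spots of at least 200 UMIs, with 3 free spots of nearest depth per positive spot, at least 20 positive spots per specimen and the specimen as a block. A second match added the share of pan-neuronal UMIs. Spots with a single channel of a pair were compared without a match. P-values were adjusted by Benjamini-Hochberg over all tested features at a threshold of 0.05. DESeq2 1.42.0 was an alternative. Scripts were tested on simulated data. Intervals are exact at 95% (binomial for levels, Poisson for shared spots), for counting error alone. A count of 0 was bounded with 3 counts.

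The members and gene lists were chosen with earlier results of these data known. The genes named are the members, genes of the lists, and per comparison the 8 highest and 4 lowest fold changes among called genes of 1 direction in every specimen with at least 20 CPM. Whether a title code is 1 animal is not stated, and no doublet caller applies to spots. The 25 nociceptor genes, 14 large-diameter genes, 23 other TRP channels and 15 genes that act on them were listed by symbol. Some items of these lists are not reported here.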

Additional observations from a re-analysis of the deposited data

Results flagged for a closer look

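TRPV1 per 1000 pan-neuronal UMIs was 4.45 in section 2 of the M. fascicularis female of batch 1, while the other 3 sections of that specimen lay between 7.51 and 7.70. Moran's I of TRPM8 in the authors' deposited tables was -0.00314 in section 1 of the same specimen, against 0.0141 to 0.0158 in its other sections. Both stood apart by Dixon's criterion, which was applied to 45 groups and marks about 1 in 20 groups by chance, and 2 were marked.

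The sex difference of TRPA1 was larger in batch 2 than in batch 1 by 3.03 on the log2 scale with sections as samples, and that of TRPV1 by 0.87. Each sex and batch held 1 specimen, so sex by batch and specimen cannot be told apart.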

How the results depend on the processing

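The count of features called for the sex difference was 67 with no filter on low counts, 8 with sections as samples and 5 with the section number as a replicate block, and for the batch difference 1279, 4345 and 4448. The section numbers were not taken to pair the samples (median correlation 0.0196 over 24 same-number pairs, 8 over 0.1, and 0.128 over the 8 within a batch, 4 over 0.1), and TRPA1 passed between batches in the last pair of fits as well (edgeR adjusted p = 0.0151 and 0.0235). Leaving out 1 section gave 115 (without section 1 of the male of batch 2) to 942 batch calls (without section 4 of the female of batch 1). DESeq2 called 485 and 435 features for TRPV1 (matched on depth, and also on neuronal content), 64 and 87 for TRPA1, 35 and 31 for TRPM8, and 18, 11 and 32 for TRPV1 against TRPM8, TRPV1 against TRPA1 and TRPM8 against TRPA1. Its adjusted p was undefined for 4998 of 8593 and 5815 of 8570 features for TRPA1, 9689 of 10199 for TRPV1 against TRPA1 and 4865 of 7380 for TRPM8 against TRPA1. Without the specimen block edgeR called 0 features in all 9 comparisons. With all free spots unmatched the counts were 1025 for TRPA1 and 617 for TRPM8, and with 1 matched free spot, chosen after seeing the data, 131 for TRPM8. Leaving out 1 specimen gave 505 to 1763 and 469 to 1722 calls for TRPV1, 99 to 356 and 120 to 540 for TRPA1, 73 to 295 and 65 to 271 for TRPM8, and 24 to 83 for TRPV1 against TRPM8. The lowest counts came without the female of batch 1, for TRPA1 without the female of batch 2. The TRPM8 share difference between sexes was -0.0209 to 0.134 percentage points with 1 section left out. Without depth deciles the shared-spot ratios were 3.79, 2.42 and 3.46. TRPA1 in TRPV1 against TRPM8 spots changed sign with DESeq2, to -0.056, and passed in neither. The causes were not tested. For named genes DESeq2 kept 114 values on their side of the threshold and lost 70, and leaving out a specimen or section kept 688 and lost 103. Not run were 2 or more UMIs for TRPA1 and TRPM8, which left 1 specimen, and leaving out specimens in the comparisons fitted in 2. TRPA1 and TRPM8 are limited by depth, at 302 and 406 UMIs in M. fascicularis.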
